A study of Mus musculus with 3 samples.

Results

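The genes described here are the mouse axon guidance families as measured in the kidney rudiment: ephrins and their Eph receptors, semaphorins and plexins, Slits and Robo receptors, and netrins with the Unc5 receptors. They were found by symbol among the array features that carry exactly 1 gene symbol, which gave 63 features for 55 genes. Of these genes 54 had a log2 ratio on all 3 arrays and were kept, out of 19015 rows of genes and unnamed features in the whole table. Robo1 had no value on array 1 and was left out of the 54. Only the alternative that kept genes with values on 2 or 3 arrays included it. Its log2 ratios on arrays 2 and 3 were 0.13 and 0.28. Features of the same gene were averaged, as were 8 pairs here.

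Fetal kidney of 13.5 days post coitum (dpc) was compared with metanephroi, the earliest stage of the permanent kidney, of 11.5 dpc. The tissue was microdissected from CD1 mice, an outbred stock, as pools of both sexes with no disease or treatment, and RNA of each age was amplified and hybridised together on 3 two-channel oligonucleotide arrays. Arrays 1 and 2 share a dye order and array 3 has the opposite one, per the labels. The labels do not say whether each array had its own RNA extract; the p-values reflect array-to-array spread alone, possibly technical, and 3 arrays limit the precision. The deposited values are log2 ratios, most likely of 11.5 dpc over 13.5 dpc, because the labels name the ages in that order and put 11.5 dpc in channel 1. A negative value is therefore read as higher at 13.5 dpc and a positive value as lower at 13.5 dpc; should that reading be wrong, all directions given here turn round. Whether array 3 was already turned to run the same way as the others is not settled either, and values with its sign turned are given where they change a direction. Across gene features the arrays correlated weakly (Pearson's r of 0.27 for arrays 1 and 2, 0.11 for 1 and 3, and -0.12 for 2 and 3, features not being independent replicates). Ratios give no level, so they cannot show whether a gene or a cell type marker is expressed at all in this tissue, and in pooled tissue fewer cells of a type and less RNA per cell cannot be told apart.

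Axon guidance molecules steer growing nerve fibres by attracting or repelling them, and the same molecules shape vessels and epithelial tubes. Ephrins are membrane-bound ligands for Eph receptor tyrosine kinases, and signals pass into both touching cells. Semaphorins act through plexins, often with neuropilins as co-receptors; Slits act through Robo receptors, and netrins attract through Dcc and repel through Unc5. In the kidney Slit2 and Robo2 are best known: mice that lack either keep Gdnf, the signal that calls out the ureteric bud, in too wide a domain and form extra buds.

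No axon guidance gene passed limma's Benjamini-Hochberg threshold over all rows, an adjusted p under 0.05 (0 of 54, against 0% of all rows; 8 at an unadjusted p under 0.05). The smallest adjusted p was 0.368 and the largest 0.984. Of the 54 genes, 19 had arrays that agreed in sign (35.2%, against 35.3% of all rows): 17 were negative on all 3 arrays (31.5%, against 18.5% of all rows) and 2 were positive on all 3 (3.7%, against 16.8% of all rows). With a mean of at least 0.5 in size besides, 7 were negative (13%, against 6.6% of all rows) and 1 was positive (1.85%, against 5.47%). The mean of the 3 arrays lay below 0 for 38 genes (70.4%, against 50.9% of all rows), and the median over the genes was -0.23, against -0.0084 over all rows. With array 3 turned, 7 genes were negative on all arrays and 10 were positive. The median was then -0.14, against 0.04 over all rows. Shares of all rows by sign with array 3 turned are not given here, so these counts have no background. Of the 8 genes at an unadjusted limma p under 0.05 (14.8%, against 9.24% of all rows), 7 were negative (13%, against 5.07%) and 1 was positive (1.85%, against 4.17%). The negative ones were Epha1, Ephb3, Ntn3, Ntn4, Plxnd1, Sema3c and Sema3d, and the positive one was Efna2. Without array 1 only 2 genes had an unadjusted limma p under 0.05, and with array 3 turned only 1. The shares of all rows at that threshold under these settings are not given here. No gene differed at least 2-fold with the same sign on every array (0 of 54, against 0.684% of all rows).

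**Figure D1:**
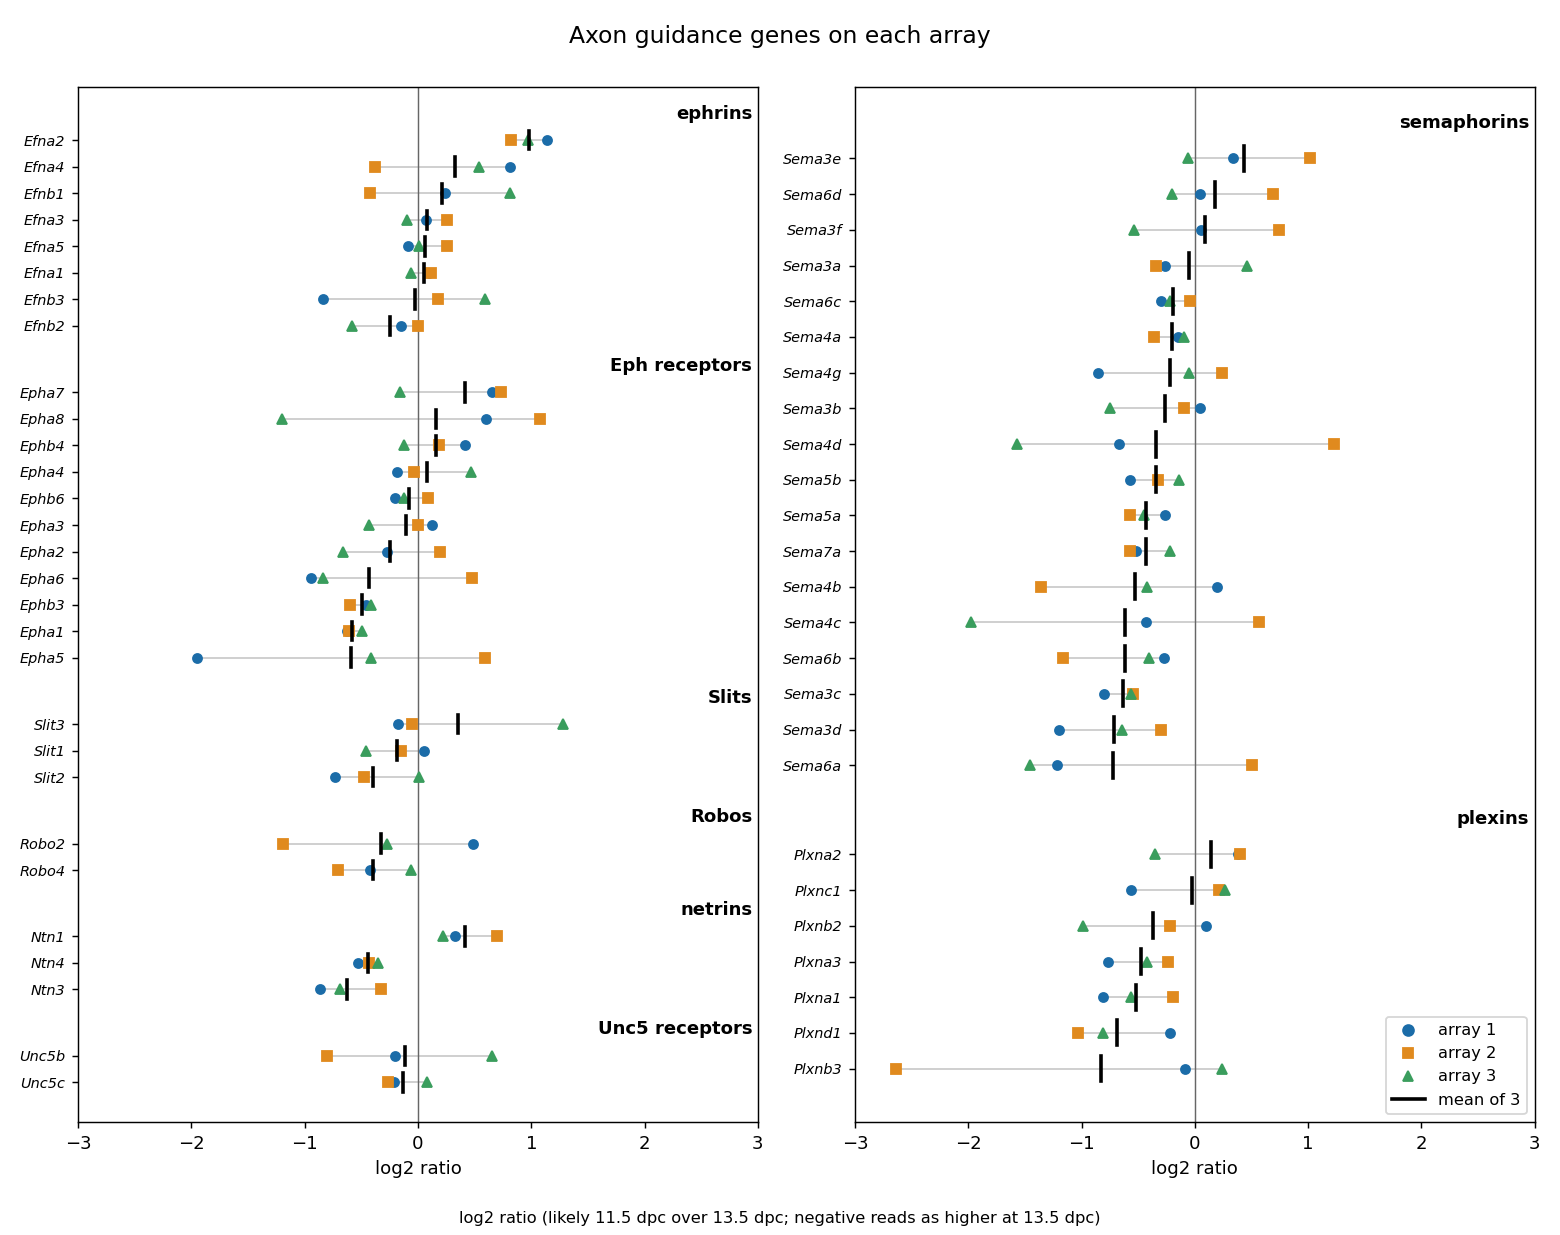
Log2 ratio of each of the 54 axon guidance genes on arrays 1 (circles), 2 (squares) and 3 (triangles), grouped by family, with the mean of 3 arrays as a black bar; genes within a family are ordered by mean. Efna2 lies between 0.82 and 1.14 on the 3 arrays, Sema3c between -0.80 and -0.54, while Plxnb3 owes its mean of -0.83 to -2.64 on array 2.

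**Figure D2:**
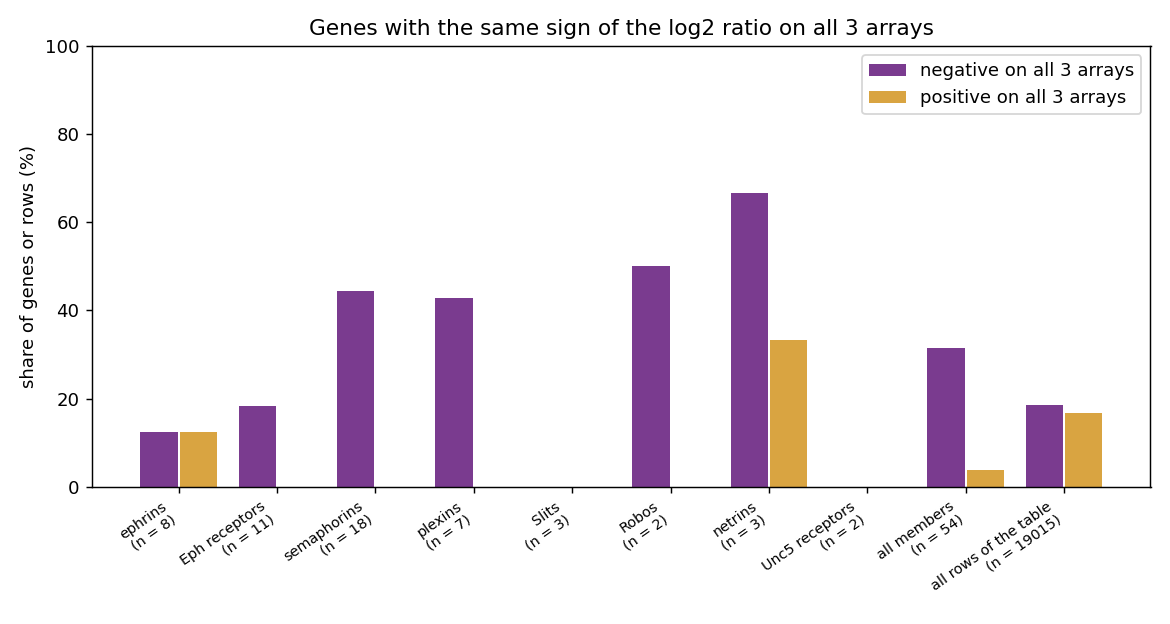
Share of genes, in percent, whose log2 ratio is negative (purple, left bar) or positive (yellow, right bar) on all 3 arrays, for each family, for all 54 genes and for all 19015 rows; families hold 2 to 18 genes, so 1 gene moves a small family's bar far. Negative shares are 44.4% of semaphorins, 42.9% of plexins and 18.2% of Eph receptors, beside 18.5% of all rows.

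The regions upstream of 4 genes are shown because these genes had the largest means of either sign among those with an unadjusted limma p under 0.05: Efna2, the 1 positive gene, and the ligands Sema3c and Sema3d with Plxnd1, a plexin that binds class 3 semaphorins. Each is the 250 bases before the annotated start in RefSeq's GRCm38.p6, 5′ to 3′ on the gene's own strand, and capitals mark GGGCGG or its reverse complement, the GC box bound by Sp factors. Efna2 lies on the plus strand at chr10:80179232-80179481, Sema3c on plus at chr5:17574566-17574815, Sema3d on plus at chr5:12382916-12383165 and Plxnd1 on minus at chr6:115995006-115995255.
Efna2: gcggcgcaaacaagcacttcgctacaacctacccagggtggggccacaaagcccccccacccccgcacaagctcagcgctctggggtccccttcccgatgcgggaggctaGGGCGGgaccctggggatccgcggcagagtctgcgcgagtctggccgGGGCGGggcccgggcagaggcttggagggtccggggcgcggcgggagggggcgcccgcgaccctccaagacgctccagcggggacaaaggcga
Sema3c: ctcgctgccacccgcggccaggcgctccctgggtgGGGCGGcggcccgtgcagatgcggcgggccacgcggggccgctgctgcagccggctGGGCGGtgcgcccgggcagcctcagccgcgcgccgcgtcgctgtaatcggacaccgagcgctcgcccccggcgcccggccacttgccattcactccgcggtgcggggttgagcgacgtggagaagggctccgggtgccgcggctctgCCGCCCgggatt
Sema3d: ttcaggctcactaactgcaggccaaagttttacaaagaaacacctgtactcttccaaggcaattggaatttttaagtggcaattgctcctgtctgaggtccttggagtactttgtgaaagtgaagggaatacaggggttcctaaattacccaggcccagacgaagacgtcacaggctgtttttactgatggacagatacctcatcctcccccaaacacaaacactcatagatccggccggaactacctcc
Plxnd1: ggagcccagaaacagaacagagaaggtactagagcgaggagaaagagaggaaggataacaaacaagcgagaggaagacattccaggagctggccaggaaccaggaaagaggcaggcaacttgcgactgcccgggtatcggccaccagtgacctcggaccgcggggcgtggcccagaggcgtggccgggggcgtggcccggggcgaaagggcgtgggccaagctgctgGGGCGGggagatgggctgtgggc
The Efna2 window held 2 GC boxes and 25 CpG dinucleotides, that of Sema3c 3 and 39, and that of Plxnd1 1 and 16. Sema3d, with a log2 ratio near that of Sema3c, had no GC box here and 4 CpG. Such windows were found for 47 of the 54 genes, 63 windows in all. Of these 73% held GGGCGG on either strand, against 32.7% of all 32851 windows of the same length. All windows come from 27025 genes of the reference, not only from genes measured on the array. The genes' windows were also richer in G and C (median 64.4%, against 52.4% over all windows) and in CpG (median 16, against 6). The motif was in 76.2% of the windows of genes negative on all arrays and in 70.7% of those of genes with mixed signs. TGGGAA, the core that the Notch factor Rbpj binds, was in 19% of the genes' windows and 21.6% of all windows, searched on both strands. Some genes have several windows, and a match is letters in a window, not a site shown to be bound.

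Among class 3 semaphorins, the secreted ones, 2 of 6 genes were negative on all arrays (33.3%, against 18.5% of all rows). Sema3c, which guides migrating neural crest and is needed to divide the outflow tract of the heart, had log2 ratios of -0.80, -0.54 and -0.57 on arrays 1, 2 and 3. All 3 arrays are negative and lie close together: the mean was -0.64 ± 0.14 (SD, n = 3 arrays), 1.56-fold higher at 13.5 dpc in the likely reading (95% interval of the log2 ratio -1.06 to -0.21, limma adjusted p = 0.488), and -0.26 with array 3 turned. Sema3d, a relative that also acts on endothelial cells, had -1.20, -0.30 and -0.64. Its arrays agree in sign but array 1 lies lowest by far, with a mean of -0.71 ± 0.45 (1.64-fold, limma adjusted p = 0.537), and -0.28 with array 3 turned. Sema3e, the class 3 member that binds Plxnd1 without a neuropilin, lay on the other side, at 0.34, 1.02 and -0.06, so its arrays differ in sign. Sema3a, which repels many nerve fibres and restrains ureteric bud branching in culture, had -0.26, -0.35 and 0.46 and thus no common sign (mean -0.05 ± 0.44). Its neighbour on the chromosome is Sema3d, with no other protein-coding gene between them in the RefSeq table. Sema3b (-0.27 ± 0.43) and Sema3f (0.08 ± 0.64) also had mixed signs.

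The membrane-bound semaphorins lay mostly below 0, with arrays that often disagreed. Over all 18 semaphorins, class 3 included, 8 were negative on all arrays (44.4%, against 18.5% of all rows). None was positive on all (16.8% of all rows were). Of the 8, Sema7a was negative on all arrays only as the average of a pair of features, its RefSeq feature having mixed signs. The median over the 18 was -0.34, and -0.13 with array 3 turned. Both class 5 genes, Sema5a (-0.27, -0.57 and -0.45) and Sema5b (-0.57, -0.33 and -0.14), were negative on every array, with means of -0.43 ± 0.15 and -0.35 ± 0.21. In class 6, whose members bind A-type plexins, Sema6b had -0.27, -1.17 and -0.41 (mean -0.61 ± 0.48), and Sema6c -0.19 ± 0.13 with all arrays negative. Sema6a had the lowest semaphorin mean, -0.72 ± 1.07, but its arrays read -1.22, 0.50 and -1.46, and it became 0.25 with array 3 turned. Sema6d lay at 0.18 ± 0.46. Class 4, the ligands of B-type plexins, was the least settled. Sema4c had -0.43, 0.57 and -1.98, and Sema4d, also known on T cells, had -0.67, 1.23 and -1.57. In both genes array 2 is positive and array 3 strongly negative; with array 3 turned their means were 0.70 and 0.71, against -0.61 and -0.34 as deposited. Sema4a (-0.20 ± 0.14) was the 1 class 4 gene negative on all arrays, while Sema4b (-0.53 ± 0.78) and Sema4g (-0.22 ± 0.56) were mixed.

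Among the plexins 6 of 7 means lay below 0 (50.9% of all rows did), and the median was -0.48, or -0.15 with array 3 turned. Plxnd1, the endothelial receptor for Sema3e, had -0.22, -1.04 and -0.81, all negative, with array 1 nearest 0. Its mean was -0.69 ± 0.42, 1.61-fold higher at 13.5 dpc in the likely reading (limma adjusted p = 0.535), and -0.15 with array 3 turned. Beside it, 8 of the 10 measured endothelial markers were negative on all arrays (18.5% of all rows were), with a median of -0.44 (-0.18 with array 3 turned) and a range from Icam2 at -0.83 to Kdr at 0.06. Their part in the result was not tested. Set against its ligands array by array, Plxnd1 lay below Sema3e on all 3 arrays (a mean difference, ligand minus receptor, of 1.12 ± 0.82), while Sema3c differed from it by 0.05 ± 0.56. The A-type plexins Plxna1 (-0.81, -0.19 and -0.57) and Plxna3 (-0.76, -0.24 and -0.43), receptors for neuropilin-bound semaphorins, were negative on every array, with means of -0.52 ± 0.31 and -0.48 ± 0.27. For Plxna1 this holds for the average of a pair of features, of which the RefSeq feature had mixed signs. Plxna2 was mixed, at 0.14 ± 0.43. Plxnb2, the class 4 semaphorin receptor that acts in ureteric bud branching, had 0.09, -0.22 and -0.99 and became 0.29 with array 3 turned. Plxnb3, a receptor for Sema5a, had the lowest mean of all 54 genes, -0.83 ± 1.57, from -0.09, -2.64 and 0.24; without array 2 it was 0.07. Plxnc1, the receptor of Sema7a, had -0.03 ± 0.47.

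Of the 8 ephrins 6 had a mean above 0 (9333 of all 19015 rows did), with a family median of 0.07. Efna2 had the highest mean of all 54 genes. Efna2 encodes ephrin-A2, a lipid-anchored ligand that helps order the map of the retina in the midbrain. Its log2 ratios were 1.14, 0.82 and 0.98 on arrays 1, 2 and 3, all positive and close together. The mean was 0.98 ± 0.16 (SD, n = 3 arrays), 1.97-fold lower at 13.5 dpc in the likely reading (95% interval 0.55 to 1.41, limma adjusted p = 0.368), which is higher than 97.3% of all rows. With array 3 turned the mean was 0.33. The other ephrin-A genes lay nearer 0: Efna4 at 0.33 ± 0.62, Efna3 at 0.08 ± 0.18, Efna5 at 0.06 ± 0.18 and Efna1 at 0.05 ± 0.10. Efna1, Efna3 and Efna4 stand next to each other on the chromosome in the RefSeq table. Of the ephrin-B genes, Efnb2, the arterial ligand of Ephb4, was negative on all arrays but by little (-0.15, -0.0043 and -0.58, mean -0.25 ± 0.30), and it became 0.14 with array 3 turned. Efnb1 (0.21 ± 0.62) and Efnb3 (-0.02 ± 0.74) had mixed signs.

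Of 11 Eph receptors 2 were negative on all arrays, Epha1 and Ephb3 (18.2%, against 18.5% of all rows). None was positive on all (16.8% of all rows were). The family median was -0.10 and became 0.12 with array 3 turned. Epha1, a receptor of epithelia, had -0.63, -0.61 and -0.50, nearly the same value on each array (mean -0.58 ± 0.07, 1.49-fold higher at 13.5 dpc in the likely reading, limma adjusted p = 0.497), and -0.25 with array 3 turned. Ephb3, known for sorting cells in the intestinal crypt, had -0.46, -0.60 and -0.42 (mean -0.49 ± 0.09, limma adjusted p = 0.524), and -0.21 with array 3 turned. These 2 receptors had the smallest spread of the Eph family. Epha7, the highest of the family, had 0.66, 0.73 and -0.16 and thus no common sign. Epha5 had the lowest mean, -0.59 ± 1.28, which rests on -1.95 on array 1 and was 0.09 without it. Epha8 (0.16 ± 1.20) and Epha6 (-0.43 ± 0.79) also varied widely between arrays. Epha2, an epithelial receptor for ephrin-A1, had -0.25 ± 0.43, and Epha3, to which ephrin-A2 binds, -0.10 ± 0.29. Ephb4, the venous partner of Efnb2, had 0.16 ± 0.27 and lay above Efnb2 on all 3 arrays (ligand minus receptor -0.41 ± 0.19). Ephb6, which lacks kinase activity, had -0.08 ± 0.15.

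Slit and Robo genes showed no common direction. Slit2 had -0.73, -0.48 and 0.0086, so that arrays 1 and 2 are negative and array 3 is at 0 (mean -0.40 ± 0.37, limma adjusted p = 0.604). Robo2 had 0.49, -1.19 and -0.28; its mean of -0.32 ± 0.84 rests on array 2 and was 0.11 without it. Slit2 minus Robo2 was negative on array 1 and positive on arrays 2 and 3 (mean -0.07 ± 1.01). Over the 3 arrays the genes nearest to Robo2 among the 54 were Sema4b, Sema6b and Plxnd1 (Euclidean distances of 0.368, 0.771 and 0.898 log2 units). Those nearest to Slit2 were Sema5b, Sema7a and Robo4 (0.266, 0.322 and 0.391). All 3 arrays repeat the same comparison of ages, so a short distance can reflect array-to-array spread and does not show shared regulation. Robo4, the Robo of endothelium, had -0.42, -0.71 and -0.06, negative on all arrays (mean -0.40 ± 0.32), next to the endothelial markers given above. Slit1 had -0.18 ± 0.26. Of the genes of the GDNF signal, Gdnf had -0.29 ± 0.16 with all arrays negative (0.03 with array 3 turned). Its receptor Ret had 0.30 ± 0.20 with all arrays positive (-0.05 with array 3 turned). Over 11 measured genes of this signal 5 were negative on all arrays and 1 positive (18.5% and 16.8% of all rows are). Their median was -0.12.

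The 3 netrins each kept a sign on every array, and not the same one. Ntn1, a laminin-like secreted guide that stromal progenitors of the kidney make, had 0.32, 0.70 and 0.22 (mean 0.41 ± 0.25, 1.33-fold lower at 13.5 dpc in the likely reading, limma adjusted p = 0.558), and 0.27 with array 3 turned. Of the 8 stromal markers, 3 were positive on all arrays (Foxd1, Meis1 and Pdgfrb), against 16.8% of all rows. Another 3 were negative on all arrays (Pdgfra, Tcf21 and Col1a1), against 18.5% of all rows. Pdgfrb had 0.385, 0.487 and 4.531, so its mean rests on array 3. With array 3 turned Pdgfrb became -1.22 and Tcf21 became 0.03. The median of the 8 markers was -0.04, and their part in the result was not tested. Ntn4, the netrin of basement membranes and vessels, had -0.53, -0.43 and -0.35 (mean -0.44 ± 0.09, limma adjusted p = 0.539), and -0.21 with array 3 turned. Ntn3 had -0.87, -0.33 and -0.69 (mean -0.63 ± 0.27, limma adjusted p = 0.516), and -0.17 with array 3 turned. The netrin receptors measured were Unc5b, which marks sprouting endothelium, with -0.20, -0.80 and 0.65 (mean -0.12 ± 0.73), and Unc5c with -0.13 ± 0.18; neither had a common sign. The attractive netrin receptor Dcc, which is not a member of these families, had -0.60, -0.35 and -1.54 and became 0.20 with array 3 turned.

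Where a gene was measured by a pair of features, the features did not always give the same picture. Among these 8 genes 4 had feature means of opposite sign and 3 had means over 1 log2 unit apart, beside 514 and 132 of the 971 genes with several features in the whole table. Sema7a, a lipid-anchored semaphorin, had -1.29, -0.88 and -0.70 from the feature designed on a RIKEN cDNA record but 0.26, -0.27 and 0.27 from the one on a RefSeq mRNA, so its mean of -0.43 ± 0.19 hides a gap between features. Plxna1 had -1.54, -0.72 and -0.85 from its RIKEN feature and -0.08, 0.34 and -0.29 from its RefSeq feature. Slit3 had 0.13, 0.26 and 2.58 from its RIKEN feature and -0.49, -0.36 and -0.01 from the other, so the mean of 0.35 ± 0.81 rests on array 3 of a single feature. Epha4, a receptor for both ephrin classes, had feature means of 0.43 and -0.27, and Plxna2 of 0.32 and -0.04. Sema3c was negative on all arrays with both features: -0.36, -0.50 and -0.40 from the RIKEN feature and -1.25, -0.59 and -0.73 from the RefSeq feature. The features of Ephb4 (0.17 and 0.15) and Efna3 (0.03 and 0.13) also lay close by mean.

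**Figure D3:**
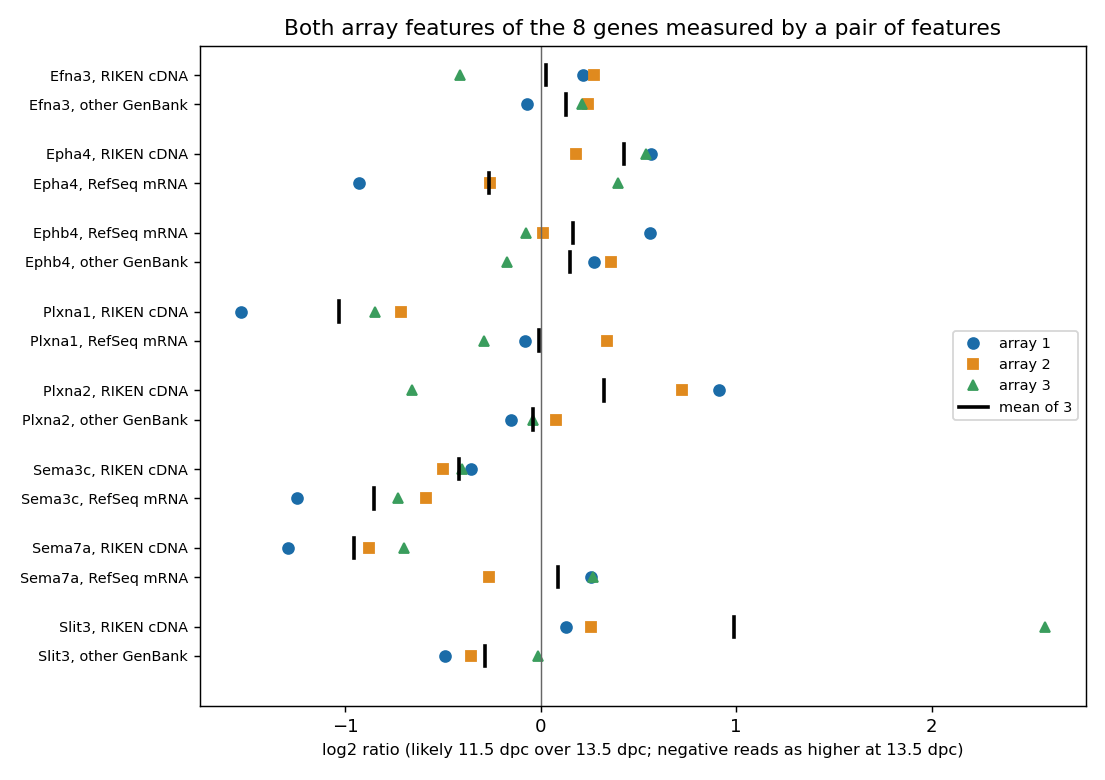
Log2 ratios on arrays 1 to 3 (circles, squares, triangles) and their mean (black bar) for each feature of the 8 genes with a pair of features, named by the kind of sequence record each feature was assigned to. All 6 values of Sema3c are negative, while the features of Sema7a, Plxna1 and Slit3 stand over 1 log2 unit apart by mean.

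The median ratio differed between parts of the oligonucleotide library. For each of the 62 features, the median of the 200 nearest other features in the library ran from -0.33 to 0.13. For 27 features this neighbour median was below -0.1; they include Epha1, Ephb3, Ntn3, Ntn4, Sema5a, Sema6b and Plxna3, their median was -0.25, and it was -0.07 after the neighbours were subtracted. For 34 features the neighbours lay within 0.1 of 0. These 34 include Sema3c, Sema3d, Plxnd1, Robo4 and Efna2, with a median of -0.16, and of -0.21 after subtraction. Of the 27 features 11 were negative on all arrays and 1 was positive. Of the 34 features 8 were negative on all arrays and 2 were positive, beside 18.5% and 16.8% of all rows. A running median by library number, chosen after the data were seen, was also taken off. Of the genes named in this paragraph Ntn4 changed most, from a mean of -0.44 to -0.15, and its neighbours had a median of -0.32. Epha1 was -0.43 and Ephb3 -0.32 after the same step, while Sema3c (-0.65), Plxnd1 (-0.75) and Efna2 (0.94) hardly moved. The part of library position in these ratios was not tested.

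**Figure D4:**
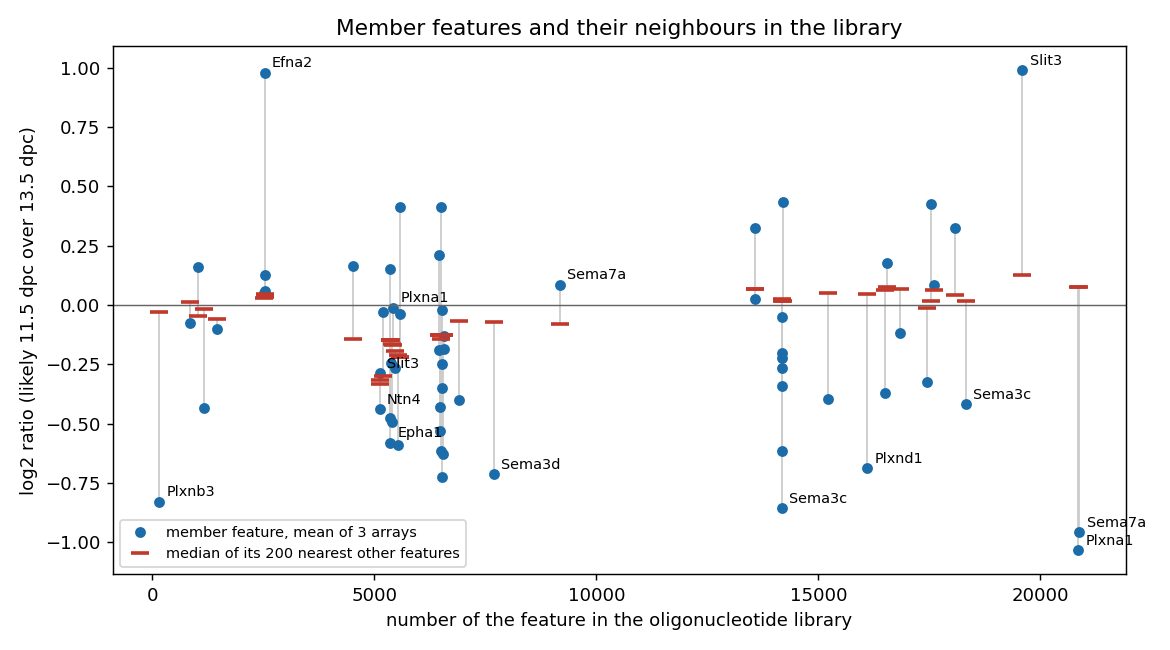
Mean log2 ratio of each of the 62 features (blue points) against its number in the oligonucleotide library, with the median of its 200 nearest non-member features (red dashes) and a grey line joining them. Neighbours of the features numbered from 4510 to 6558 lie below -0.1, whereas those of Sema3c, Plxnd1 and Efna2 lie near 0.

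The median SD over the 3 arrays was 0.42 for these genes, against 0.34 over all rows. An SD above 1 was found for 6 genes (Plxnb3, Sema4d, Sema4c, Epha5, Epha8 and Sema6a), 11.1% of them, against 11.7% of all rows. With array 3 turned, 15 means changed sign. Besides Efnb2, Plxnb2, Sema4c, Sema4d and Sema6a, given above, the turned means were -0.50 for Slit3, -0.33 for Efnb1, -0.23 for Epha4 and -0.04 for Efna4, which were positive as deposited. They were 0.23 for Sema3b, 0.19 for Epha2, 0.19 for Epha3, 0.12 for Epha6, 0.12 for Slit1 and 0.0034 for Ephb6, which were negative as deposited. The 32 ligands had a median of -0.21, with 11 negative (34.4%) and 2 positive (6.25%) on all arrays. The 22 receptors had a median of -0.29, with 6 negative (27.3%) and none positive. Of all rows, 18.5% were negative and 16.8% positive on all arrays, and their median was -0.0084.

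Of 57 other listed guidance genes, the co-receptors, receptors and inner partners of these families, 47 were measured, 11 negative and 9 positive on all arrays (18.5% and 16.8% of all rows are), with a median of -0.04. None passed limma's adjusted threshold, and at an unadjusted limma p under 0.05 there were 5 negative and 2 positive (5.07% and 4.17% of all rows are). The negative ones were the actin-severing cofilin gene Cfl1 (-1.52 ± 0.19), its partner Cap1 (-0.94 ± 0.09), Rgmb (-0.88 ± 0.48), which binds the netrin receptor Neo1, Dcc (-0.83 ± 0.63) and the netrin antagonist Draxin (-0.51 ± 0.29). The positive ones were Flrt3, which binds Unc5 and Robo1, at 1.00 ± 0.26 and the semaphorin mediator Crmp1 at 0.48 ± 0.22. The semaphorin co-receptors Nrp1 and Nrp2 had -0.32 ± 0.60 and 0.15 ± 0.32, both with mixed signs. Neuron and neural crest markers, the cells in which these families were first studied, lay on both sides. Of 11 measured, 4 were negative on all arrays, such as Th at -1.04 ± 0.40 (18.5% of all rows are). The 2 positive on all arrays were Stmn2 at 0.84 ± 0.29 and Gap43 at 0.94 ± 0.30 (16.8% of all rows are). The list median was -0.19, and -0.18 with array 3 turned. Early nephron markers had a median of -0.91 over 4 measured genes (-0.12 with array 3 turned), and their part in the members' ratios was not tested.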

How the data were processed

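Each of 3 arrays compared fetal kidney of 13.5 dpc with metanephroi of 11.5 dpc. The deposited table holds 1 log2 ratio per feature and array, normalised by the authors; base 2 was read off the values, because as powers of 2 those between -3 and 2 were multiples of 0.001 in 100% of cases (within 0.02 of a step; 4.42% for base e). Per the labels, ImaGene 5.5 read the images. They name both a print-tip loess with a step between arrays and a Lowess curve over 20% of the data; the one applied was not given in the sources used here. With no intensities analysed, dim and saturated spots were not filtered.

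Of 22702 features, 881 without a mouse library name were left out. Features with values on all 3 arrays were averaged per symbol (19015 rows). Symbols came from the platform annotation and matched RefSeq's gene table by Entrez ID for all 63 member features, with 0 renamed. The test of each mean against 0 used limma 3.58.1 (R 4.3.3, lmFit, eBayes, two-sided, Benjamini-Hochberg over all rows). The procedure was tested on simulated data in which every added shift was larger in size than the mean of any member. That run therefore does not show how well differences of the members' size are found. Intervals cover 95%. Array 3 was used as deposited. Genes named with values were those with the same sign on all arrays and a mean of at least 0.5 in size, an unadjusted limma p under 0.05, the ends of each family, genes with discordant features, and a list of genes with a role in kidney or vessels. Other members named were chosen after their values were seen. The members, lists and ligand pairs were chosen with earlier results of these data known. Alternatives were leaving out each array, turning array 3, 3 scalings, running medians along the library, a dye term, single features, genes with values on 2 or 3 arrays, array weights and an ordinary one-sample test.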

Additional observations from a re-analysis of the deposited data

How the results depend on the processing

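No axon guidance gene passed limma's adjusted threshold under any alternative run (0 in each, with 1 to 11 genes at an unadjusted limma p under 0.05). Turning array 3 gave 7 genes negative and 10 positive on all arrays, against 17 and 2 as deposited. It gave 1 gene at an unadjusted limma p under 0.05, against 8, and a median of -0.14, against -0.23. Over all rows the median was 0.04 with array 3 turned. Efnb2 became positive (0.14), and 15 genes changed the sign of their mean, 14 of them without a common sign on the arrays. The count of genes positive on all arrays was 4 after median centring, median and scale adjustment, quantile normalisation, the running median in file order and with single features, and from 4 to 12 when an array was left out and only the other 2 had to agree. The count at an unadjusted limma p under 0.05 ran from 2 to 7 without 1 array. Without 1 array the median stayed between -0.24 and -0.20, and 6, 9 and 6 genes changed the sign of their mean without arrays 1, 2 and 3. The Unc5 median became 0.08 without array 2. The mean also changed sign for 6 genes with the dye term, 2 with each running median and 1 with array weights. None of these had a common sign on the arrays. The running median by library number and the median over genes with a single feature (-0.25) were chosen after the data were seen. Taking off a running median moved the median over the genes from -0.23 to -0.19 (file order) and -0.16 (library number). With the dye term it was -0.27. Genes below 0 on every array numbered 13 (file order) and 15 (library number) after this step, against 17 as deposited. Each of the 3 scalings gave 16, and single features gave 19. The causes of these changes were not tested, and without intensities the signal behind each ratio is unknown.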
